A study of Mus musculus with 2 samples.

Results

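The Hox genes encode homeodomain transcription factors that give cells their position along the body axis. Mice have 39 of them in the annotation used here (GENCODE M21, GRCm38), all taken as members because their symbol is Hoxa, Hoxb, Hoxc or Hoxd followed by a number and they are protein-coding. They are 39 of 54438 genes in the deposited tables and are covered by 87 listed transcripts. Hoxa holds 11 genes on chromosome 6 (52155590 to 52260880), Hoxb 10 on chromosome 11 (96194316 to 96368256), Hoxc 9 on chromosome 15 (102921103 to 103036852) and Hoxd 9 on chromosome 2 (74668310 to 74765142). Within a cluster the genes are numbered from 1 to 13, and genes with the same number in different clusters are called paralogs.

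As background, low-numbered Hox genes act toward the head and high-numbered ones toward the tail and the tips of the limbs, in the order in which they lie on the chromosome. Hox proteins bind DNA together with partners of the Pbx and Meis families. Retinoic acid switches on low-numbered genes, Polycomb complexes keep the clusters silent, and Trithorax and MLL complexes keep them active. Many adult cells keep the Hox combination of the place they came from. In the mammary gland Hoxa9, Hoxb9 and Hoxd9 act together in the growth of the gland for lactation, and Hoxc8 takes part in placing the mammary buds.

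The values come from 2 libraries, titled W1 and W2. Both carry the labels wild type, C57BL/6 and an age of 8 weeks, with mammary gland as the tissue and basal cells, the outer epithelial layer of its ducts, as the sorted population. The study is about basal cells sorted with or without the checkpoint ligand Pd-l1 on their surface. The labels do not say which library holds which, so neither was placed in a class. The sources used here do not give the antibodies, the gates or how many mice and cells were pooled. With 1 library of each title there is no replicate and no test. The libraries are set side by side, and what separates them cannot be read as an effect of Pd-l1.

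Library W1 went against its cell type label. Of 12 endothelial markers 11 had reads in W1 and 3 in W2, at a summed level of 4712 and 7.14 TPM (each transcript's share of the library after division by its length, on a scale with the same total in both libraries). All 7 lymphatic endothelial markers had reads in W1 and 3 in W2 (13139 and 8078 TPM). Most of both sums was Ccl21a (10177 and 7543 TPM), which lay within 2-fold, as did Pdpn. Lyve1, Prox1 and Flt4 had 21085, 1801 and 768 reads in W1 and 0 in W2. Mmrn1 had 3 and 0 reads, and Reln went the other way with 2 and 158. Of 12 basal markers 7 had reads in W1 and 10 in W2, at 195 and 36963 TPM, and Cnn1, Krt5 and Myh11 were at 0 in W1 alone. Itgb4 and Trp63 were at 0 in both libraries. Luminal markers summed to 38.8 and 4669 TPM, fibroblast markers to 3.19 and 230 TPM, leukocyte markers to 88.7 and 7.17 TPM, and pericyte markers to 62.8 and 86.7 TPM. Adipocyte markers summed to 7.68 and 0.604 TPM and Schwann cell markers to 0 and 1.67 TPM. Cd274, which encodes Pd-l1, had 649 reads in W1 and 0 in W2, and this was not used to assign a library. With 2 libraries, any gene that differs between them lines up with these markers. Their part in the Hox differences below was not tested. In bulk RNA, fewer cells of a type and less RNA per cell cannot be told apart.

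Library W1 held 3055830 counted reads and W2 3800022, worked out from the size of 1 read in the tables. Intervals in brackets are exact 95% intervals on reads. Where a library had 0 reads, 3 reads were taken as the most its depth allows, if every read on the gene was counted. Fold values given as at least a number rest on this. The intervals and this limit cover counting error only, since no molecular identifiers are named. Itgb4, Trp63 and Suz12, with 10, 8 and 6 listed transcripts, were at 0 in both libraries. Whether reads of genes with several transcripts were left out was not tested.

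Hox transcripts were mostly a feature of library W1. Reads fell on 16 of the 39 Hox genes in W1 and on 3 in W2. All 3 were also read in W1, which left 13 genes with reads in W1 alone and 23 with none. Among all 21939 protein-coding genes, 41.3% had reads in W1, 36.4% in W2 and 51.8% in neither, so the count in W1 was close to the background and the count in W2 lay below it. Summed over the family, the level was 211 TPM from 1327 reads in W1 and 18.1 TPM from 121 reads in W2. Relative to all counted reads, the sum was 13.6-fold higher in W1 (11.3 to 16.6).

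**Figure D1:**
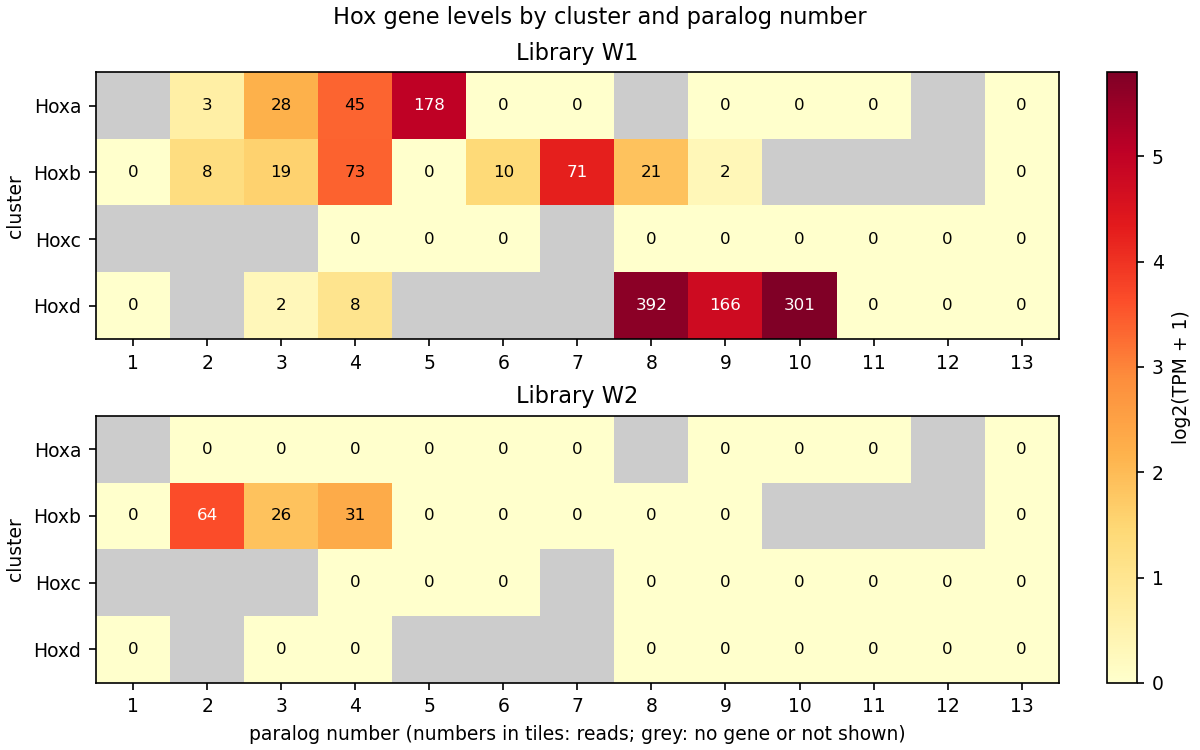
Each tile is a Hox gene, with its cluster on the vertical axis and its paralog number on the horizontal axis, for library W1 above and library W2 below. Colour is log2(TPM + 1), the number in a tile is its reads, and grey means that the cluster has no such gene or that it is not shown. In W1 the high tiles are Hoxa5 and Hoxd8 to Hoxd10, and in W2 only Hoxb2, Hoxb3 and Hoxb4 have reads.

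Genes were compared where they reached 1 TPM in at least 1 library, and a gene was called higher in a library at 2-fold or more on the scale of TPM + 1. Of the 13 Hox genes that reached this level, 11 were higher in W1, where 34.7% of all 12587 genes compared were. Hoxb2 was the only one higher in W2, where 32.9% of all genes were, and Hoxb3 lay within 2-fold. The other 26 were too low to compare. Of the 13, 10 had 0 reads in W2, and a gene at 1 TPM or more in one library and 0 in the other passes the rule by construction, so these counts only describe the libraries. The median log2 ratio of TPM + 1, W1 over W2, was 2.19 for the 13 Hox genes (range -2.36 to 5.80) and -0.07 for all genes compared. The 10 genes with 0 reads in W2 have a ratio of 1 or more by construction, so the Hox median too only describes the libraries. With each gene that had 0 reads in W2 set at 3 reads there, the Hox median was 3.23 on the plain TPM scale. Of all 15809 genes with reads, 55.3% had them in both libraries, 28.4% in W1 alone and 16.3% in W2 alone. Among the 16 Hox genes with reads the numbers were 3, 13 and 0. Of the 9 Hox genes with 20 reads or more in W1, 8 had 0 reads in W2, where 17.3% of 7039 genes with as many reads did. Of the 3 Hox genes with 20 reads or more in W2, 0 had 0 reads in W1. Both counts start from the library in which the genes are high, so they too only describe the libraries.

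The promoters of 4 genes on which the results turn are shown before their levels. They are Hoxd10 and Hoxd8, with the most reads in W1, Hoxa5, the leading gene of its cluster, and Hoxb4, read in both libraries. Each is the 250 bases before the start of the gene in RefSeq on GRCm38.p6, read 5′ to 3′ on the gene's strand, at chr2:74691641-74691890 (plus), chr2:74704365-74704614 (plus), chr6:52204588-52204837 (minus) and chr11:96318017-96318266 (plus) in that order. The Hoxd10, Hoxd8 and Hoxa5 windows lie within the annotated spans of other genes, Gm28309, Hoxd3os1 and Hoxa3 in that order. Overlap with annotated exons was not tested. Capitals mark matches, on either strand, to 7 short motifs that are spelled out after the sequences.
Hoxd10: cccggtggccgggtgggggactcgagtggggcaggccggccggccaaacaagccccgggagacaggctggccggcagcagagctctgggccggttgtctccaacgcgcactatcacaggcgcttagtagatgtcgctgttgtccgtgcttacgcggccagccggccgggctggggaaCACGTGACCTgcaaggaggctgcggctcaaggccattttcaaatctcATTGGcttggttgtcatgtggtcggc
Hoxd8: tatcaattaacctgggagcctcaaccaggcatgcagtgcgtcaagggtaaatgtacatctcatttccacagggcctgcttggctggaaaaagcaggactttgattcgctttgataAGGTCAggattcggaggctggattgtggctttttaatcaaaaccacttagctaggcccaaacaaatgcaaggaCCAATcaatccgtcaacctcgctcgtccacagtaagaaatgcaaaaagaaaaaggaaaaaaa
Hoxa5: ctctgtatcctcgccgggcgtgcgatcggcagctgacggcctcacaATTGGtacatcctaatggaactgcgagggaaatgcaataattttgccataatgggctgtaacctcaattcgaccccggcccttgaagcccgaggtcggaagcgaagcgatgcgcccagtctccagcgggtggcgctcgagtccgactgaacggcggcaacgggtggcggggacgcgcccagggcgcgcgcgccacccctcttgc
Hoxb4: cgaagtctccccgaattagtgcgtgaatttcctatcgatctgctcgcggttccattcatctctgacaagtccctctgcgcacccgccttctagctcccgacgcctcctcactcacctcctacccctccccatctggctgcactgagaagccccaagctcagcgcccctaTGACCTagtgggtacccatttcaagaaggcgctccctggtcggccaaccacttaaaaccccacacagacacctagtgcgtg

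In the Hoxd10 window an E-box (CACGTG) begins 73 bases before the start and overlaps a nuclear receptor half-site (AGGTCA) that begins at 69, and a CCAAT box (CCAAT) begins at 26. The Hoxd8 window has a half-site at 135 and a CCAAT box at 62, the Hoxa5 window a CCAAT box at 204, and the Hoxb4 window a half-site at 81. The other motifs searched, a Pbx-Hox composite site (TGATNNAT), a homeodomain core (TAATTA), a Meis site (TGACAG) and a TATA box (TATAAA), were not found in these 4 windows. RefSeq gave 24 promoters for 22 of the 39 Hox genes. The half-site was in 6 of the 24 and in 14.0% of 32851 promoters of the same length, the CCAAT box in 14 and 33.8%, and the E-box in 4 and 6.02%. The Pbx-Hox site was in 4 of the 24 and 7.68% of all, the homeodomain core in 2 and 4.84%, the Meis site in 2 and 15.9%, and the TATA box in 4 and 12.4%. These are matches of letters and not shown to be sites. The Hox promoters had a median of 12.5 CpG dinucleotides against 6 for all, and a median GC content of 58.6% against 52.4%.

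The Hoxd cluster gave the largest share of the Hox signal in W1, 130.7 of 211 TPM or 62.0%, and had 0 reads in W2. Hoxd10 (ENSMUSG00000050368.4, 74691924 to 74695105), known from work on blood vessels as a gene that holds endothelial cells in a resting state, stood at 54.7 TPM in W1 (48.7 to 61.2, 301 reads). With 0 reads in W2 it was at least 101-fold higher in W1. Hoxd8 (74704615 to 74707933), which is known from lymphatic vessels among other tissues, stood at 49.1 TPM (44.4 to 54.2, 392 reads), at least 132-fold higher. Hoxd9 (74697727 to 74700208), a paralog of the genes needed for lactation, stood at 25.6 TPM (21.9 to 29.9, 166 reads), at least 55.7-fold higher. These 3 genes are direct neighbours, and their log2 ratios of TPM + 1 were 5.80, 5.65 and 4.74. Hoxd10 and Hoxd8 share the half-site and the CCAAT box in their windows, at different distances, and the E-box is in the Hoxd10 window alone of the pair.

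Outside that block the Hoxd cluster was low or at 0. Hoxd4, which patterns the neck vertebrae and hindbrain, stood at 1.03 TPM in W1 (8 reads) and 0 in W2, at least 2.68-fold higher. Hoxd3, which promotes the invasive state of endothelial cells, had 2 reads in W1, both on a transcript with a retained intron, and 0 in W2. Hoxd1, Hoxd11, Hoxd12 and Hoxd13 had 0 reads in both libraries. Signal in Hoxd was therefore in the middle of the cluster, with 0 reads at either end.

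The Hoxa cluster gave 44.7 TPM in W1, 21.2% of the Hox total there, and had 0 reads in W2. Hoxa5 (ENSMUSG00000038253.6, 52201754 to 52204587), needed for lung development and known to stabilise endothelial cell contacts, stood at 31.3 TPM (26.9 to 36.2, 178 reads), at least 59.7-fold higher in W1. Hoxa4, its neighbour, stood at 9.32 TPM (6.80 to 12.5, 45 reads), at least 15.1-fold higher. Hoxa3, which shapes the pharyngeal arches and the thymus, stood at 3.57 TPM (2.37 to 5.16, 28 reads), at least 9.40-fold higher. Hoxa2, a hindbrain gene, had 3 reads in W1 (0.558 TPM), within what 0 reads in W2 allows. Hoxa6, Hoxa7, Hoxa9, Hoxa10, Hoxa11 and Hoxa13 had 0 reads in both libraries. Reads in Hoxa thus lay on paralogs 2 to 5, a contiguous run.

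Hoxb was the only cluster with reads in both libraries, 35.5 TPM in W1 and 18.1 TPM in W2. It made up 16.8% of the Hox total in W1 and 100% of it in W2. The 3 genes read in both, Hoxb2, Hoxb3 and Hoxb4, lie side by side, and they went in different directions.

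Hoxb2 (ENSMUSG00000075588.6, 96350525 to 96354012), a gene of hindbrain segments, stood at 1.43 TPM in W1 (0.616 to 2.81, 8 reads) and 11.4 TPM in W2 (8.81 to 14.6, 64 reads). It was 8.01-fold higher in W2 (3.83 to 19.4), and the counting intervals do not overlap. Hoxb3 (96323326 to 96347930), known to support the branching of capillaries, stood at 1.97 TPM (19 reads) and 2.67 TPM (26 reads). Its ratio was 1.36-fold toward W2 (0.724 to 2.60), a difference not detectable at this depth. Hoxb4 (ENSMUSG00000038692.8, 96318267 to 96321638), known for the self-renewal of blood stem cells, stood at 9.39 TPM in W1 (7.36 to 11.8, 73 reads) and 3.96 TPM in W2 (2.69 to 5.62, 31 reads). It was 2.37-fold higher in W1 (1.54 to 3.74). Its promoter window holds the half-site that Hoxd10 and Hoxd8 also have, a match found in 14.0% of all promoters. Any link of it to the levels was not tested.

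Reads of Hoxb2 and Hoxb3 cannot be told apart from those of a gene on the opposite strand unless they were counted by strand, which the sources used here do not say. Hoxb3os, a noncoding gene antisense to both, stood at 6.25 TPM in W1 (40 reads) and 21.1 TPM in W2 (129 reads), 3.37-fold higher in W2 (2.35 to 4.94). A 50-mer is a stretch of 50 bases, and one found in no other listed transcript is called a transcript's own here. The coding Hoxb2 transcript had 400 own 50-mers on its strand but 46 when both strands were counted, and 6 and 49 reads. The retained-intron Hoxb2 transcript had 1906 own 50-mers on both strands, and 2 and 15 reads. Hoxb2 was thus higher in W2 on both of its listed transcripts. The coding Hoxb3 transcript had 1542 own 50-mers on its strand and 300 on both. For Hoxb4 the numbers were the same, 2505, so no listed antisense transcript shares its sequence.

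The other Hoxb genes had reads in W1 alone. Hoxb7, a gene often raised in breast tumours, stood at 18.2 TPM in W1 (14.2 to 22.9, 71 reads) and was at least 23.8-fold higher there. Hoxb8, a gene of early myeloid cells, stood at 2.63 TPM (1.63 to 4.02, 21 reads), at least 7.05-fold higher. Hoxb6 stood at 1.68 TPM (0.806 to 3.09, 10 reads), at least 3.36-fold higher. Hoxb9, the second paralog of the lactation group, had 2 reads in W1, which is within what 0 reads in W2 allows. Hoxb1, Hoxb5 and Hoxb13 had 0 reads in both.

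All 9 Hoxc genes had 0 reads in both libraries. They are Hoxc4, Hoxc5, Hoxc6, Hoxc8, Hoxc9, Hoxc10, Hoxc11, Hoxc12 and Hoxc13, of which Hoxc8 is the mammary bud gene and Hoxc13 a gene of hair and nail. For Hoxc8, 0 reads allow up to 0.445 TPM in W1 and 0.442 TPM in W2, if every read on it was counted.

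**Figure D2:**
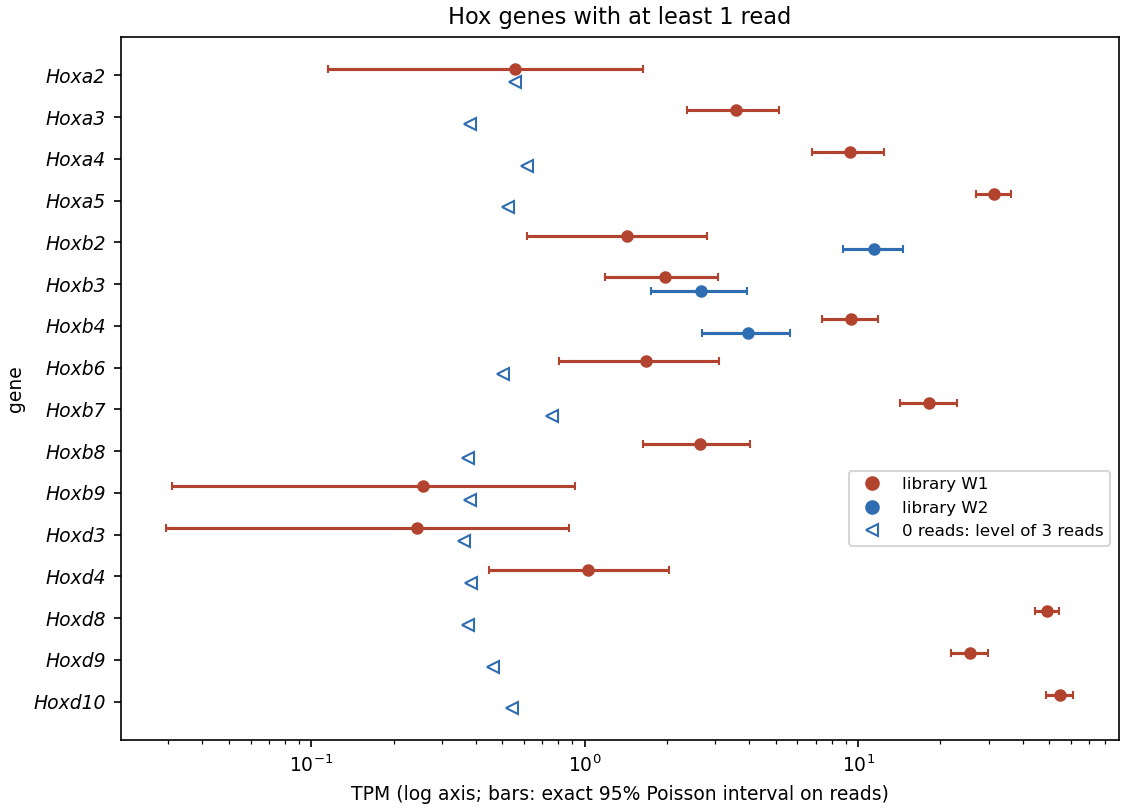
Levels in TPM on a log axis for the 16 Hox genes with at least 1 read, in library W1 (red) and library W2 (blue). Bars are exact 95% Poisson intervals on reads, and open triangles mark the level of 3 reads where W2 had 0. Hoxd10 at 54.7 TPM and Hoxd8 at 49.1 TPM lead W1, and Hoxb2 at 11.4 TPM leads W2.

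By level in W1 the order began with Hoxd10 and Hoxd8, whose intervals overlap, followed by Hoxa5 and Hoxd9, whose intervals also overlap. Hoxb7 came next and overlaps the interval of Hoxd9 but not that of Hoxa5. Hoxb4 and Hoxa4 were alike at 9.39 and 9.32 TPM, with overlapping intervals and a gap to Hoxb7. The order in W2 was Hoxb2, then Hoxb4 and Hoxb3, and the intervals of the last pair overlap. The sources used here do not say how reads that fit several isoforms were counted, which leaves the levels of genes with several listed transcripts less certain than those of genes with 1 (Hoxd10, Hoxa5, Hoxd9, Hoxa4 and Hoxb4). Hoxd8 has 3 listed transcripts, and all of its 392 reads were on 1 of them, which has 873 own 50-mers.

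By paralog number the signal in W1 was in the middle of the clusters. Paralogs 4 to 8 gave 58.1% of the Hox TPM in W1, from reads on 8 of 15 genes, and 21.9% in W2, all of it Hoxb4. Paralogs 9 to 13 gave 38.2% in W1, from 3 of 16 genes, and 0 in W2. Paralogs 1 to 3 gave 3.68% in W1, from 5 of 8 genes, and 78.1% in W2, from Hoxb2 and Hoxb3. No gene of paralogs 11 to 13, 9 genes in all, had a read. Paralog sets were split within W1. Hoxa9 and Hoxc9 had 0 reads where Hoxd9 had 166, Hoxb5 and Hoxc5 had 0 where Hoxa5 had 178, and Hoxa10 and Hoxc10 had 0 where Hoxd10 had 301.

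More of the noncoding genes inside the clusters or within 5 kb of them had reads in W1 than in W2. Their levels went in both directions. Of 47, 14 had reads in W1 and 3 in W2, and 33 had none. For scale, 15809 of all 54438 genes had reads, 55.3% of them in both libraries and 28.4% in W1 alone. Of those compared, 9 were higher in W1 and 2 in W2 (Hoxb3os and Gm11539), where 34.7% and 32.9% of all genes compared were. All of the 9 but Hoxd3os1 had 0 reads in W2 and pass the rule by construction. In Hoxa 6 of 22 had reads, all in W1, and in Hoxc 0 of 7. Hotairm1, a noncoding RNA at the low-numbered end of Hoxa known from myeloid cells, stood at 17.2 TPM in W1 (26 reads) and 0 in W2, at least 8.73-fold higher. Gm29430, antisense in the same cluster, stood at 4.42 TPM (27 reads) and 0, at least 9.06-fold higher. All 7 miRNA hairpins had 0 reads.

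The remaining noncoding genes with 20 reads or more had reads in both libraries. Hoxd3os1, which spans Hoxd8 on the opposite strand, stood at 37.9 TPM in W1 (59 reads) and 10.7 TPM in W2 (15 reads), 3.55-fold higher in W1 (1.99 to 6.73). No other gene in the Hoxd cluster or within 5 kb of it had reads in W2, Hoxd8 included. Gm11539, a processed pseudogene between Hoxb13 and Hoxb9, stood at 37.9 TPM (64 reads) and 81.2 TPM (138 reads), 2.14-fold higher in W2 (1.58 to 2.93). Such copies share reads with the gene they derive from, so its level is uncertain.

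**Figure D3:**
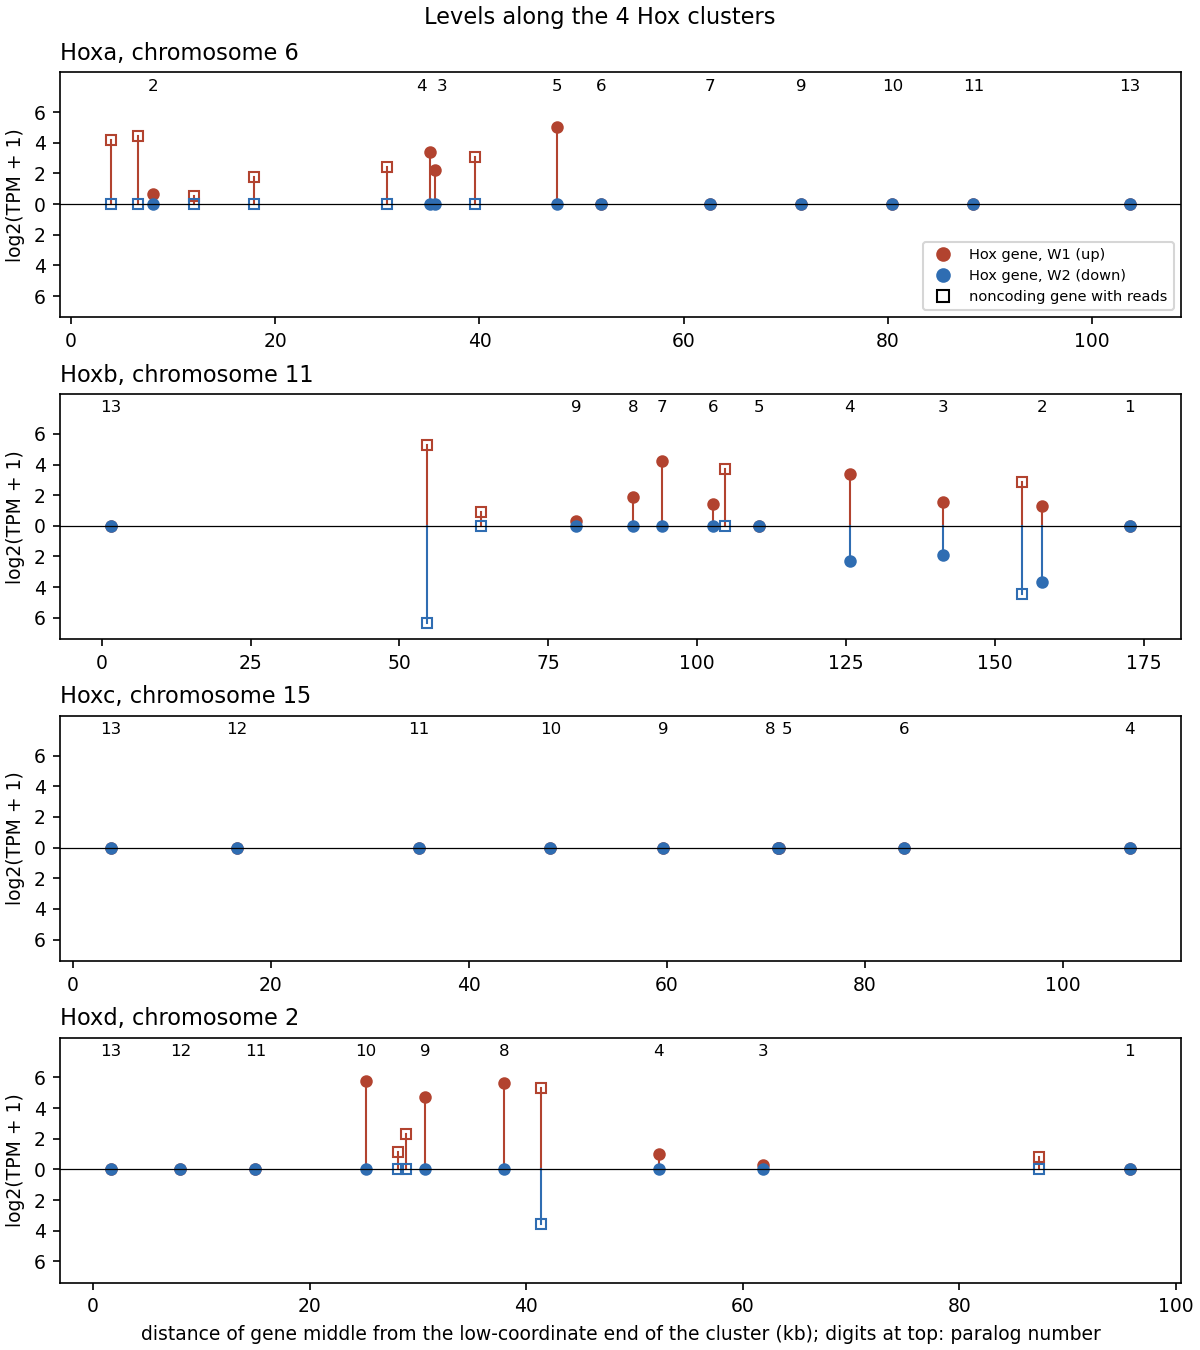
Levels along each cluster, as log2(TPM + 1) on the vertical axis with library W1 drawn upward and library W2 downward, against the distance in kb from the low-coordinate end of the cluster. Filled points are Hox genes with their paralog number above, and open squares are noncoding genes with reads. Signal in W1 forms blocks of neighbours in Hoxa, Hoxb and Hoxd, W2 has Hox signal only at Hoxb2 to Hoxb4, and Hoxc is at 0 throughout.

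The nearest protein-coding genes outside the clusters went in both directions. Of the 3 nearest on each side of each cluster at any distance, 24 in all, 16 had reads in W1 and 14 in W2. Among all protein-coding genes, 41.3% had reads in W1 and 36.4% in W2. Of the 24, 4 were higher in W1, 2 were higher in W2 and 9 lay within 2-fold. Of all genes compared, 34.7% were higher in W1 and 32.9% in W2. Skap2, Snx10 and Lnpk, called toward W1, had 0 reads in W2 and pass the rule by construction. Beside Hoxa, Skap2 stood at 9.28 TPM in W1 (119 reads) and 0 in W2 and Snx10 at 1.67 TPM (33 reads) and 0, while Hibadh stood at 38.1 and 47.1 TPM and Tax1bp1 at 138 and 159 TPM. Beside Hoxd, Lnpk stood at 3.93 TPM (21 reads) and 0 and Mtx2 at 10.5 and 3.78 TPM, while Nfe2l2, which encodes the oxidative stress factor Nrf2, stood at 117 and 246 TPM. Hnrnpa3 and Atp5g3, on opposite sides of Hoxd, lay within 2-fold. Beside Hoxc, where the Hox genes had no reads, Cbx5, which encodes the heterochromatin protein HP1 alpha, stood at 0.562 and 4.73 TPM, 8.41-fold higher in W2 (4.91 to 15.5), and Atp5g2 and Atf7 lay within 2-fold on the TPM + 1 scale. Beside Hoxb, Cbx1 stood at 14.4 and 15.0 TPM.

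If reads that fit several transcripts were left out, how much sequence a gene has of its own would set how many of its reads could be counted, and this was not tested. The transcript with the most own 50-mers had 234 to 2874 of them in Hox genes without reads (median 1588) and 317 to 2505 in Hox genes with reads (median 1536), so the 2 sets overlap over nearly all of their range. With both strands counted, 24 Hox genes had 1000 or more, of which 10 had reads in W1 and 14 had none in either library. Of 15 Hox genes with 1 listed transcript, 6 had reads and 9 had none. Hoxa7 and Hoxa11 had 306 and 45 own 50-mers with both strands counted, among the fewest of the Hox genes without reads. Hoxc13, Hoxd12, Hoxd13 and Hoxd11 had 2412 or more, and for them 3 reads are worth 0.294 to 0.402 TPM in W1.

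**Figure D4:**
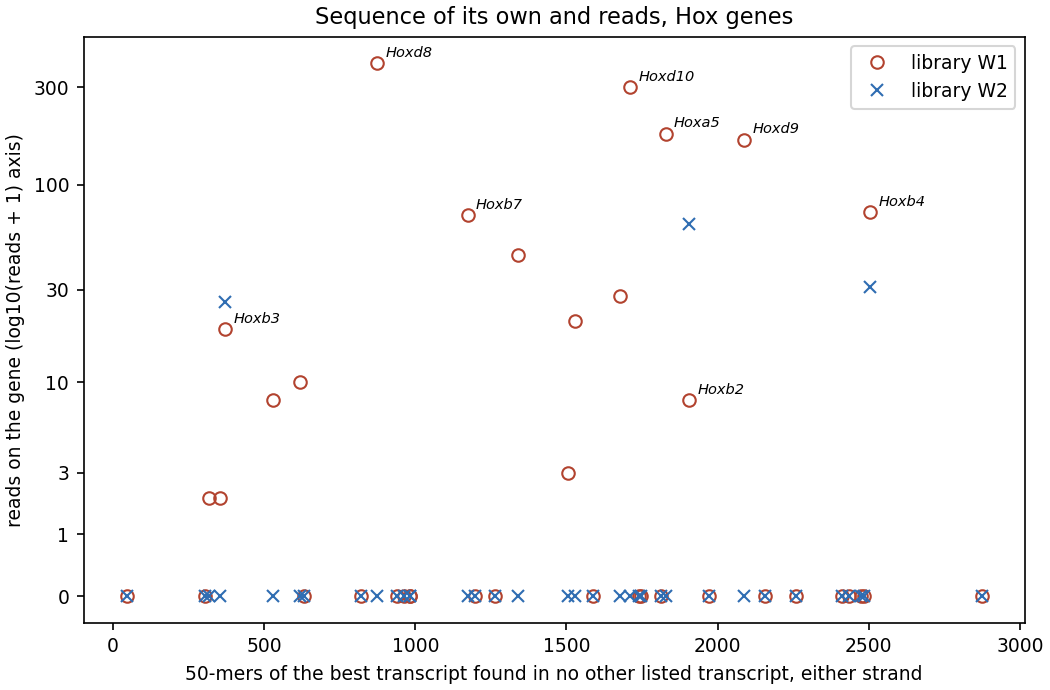
Reads on each Hox gene shown (vertical axis, log10(reads + 1) scale) against the number of 50-mers of its best transcript that no other listed transcript holds on either strand (horizontal axis), in library W1 (circles) and W2 (crosses). Genes at 0 reads in both libraries spread from 45 to 2874 own 50-mers, and the genes with reads in W1 from 317 to 2505.

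Of the partners of the Hox proteins, the TALE homeodomain cofactors, more had reads in W1 than in W2. Their levels went in both directions. Of 9, 6 had reads in W1 and 2 in W2, where 41.3% and 36.4% of protein-coding genes did. Of the 4 compared, 2 were higher in W1, where 34.7% of all genes compared were. Of the rest, 1 was higher in W2 and 1 lay within 2-fold (median log2 ratio 1.22, against -0.07 for all genes). Both genes called toward W1 had 0 reads in W2 and pass the rule by construction. Meis2 stood at 27.4 TPM in W1 (60 reads) and 0 in W2, at least 20.1-fold higher, and Pbx2 at 2.26 TPM (21 reads) and 0, at least 7.05-fold higher. Pbx3 lay within 2-fold at 8.05 and 4.44 TPM.

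Regulators of Hox chromatin went in both directions. In the Polycomb list, 18 of 26 genes had reads in W1 and 13 in W2, where 41.3% and 36.4% of protein-coding genes did. Of 17 compared, 6 were higher in W1, where 34.7% of all genes compared were, and 3 in W2, where 32.9% were. The other 8 lay within 2-fold (median log2 ratio -0.10). All of the 6 but Rnf2 had 0 reads in W2 and pass the rule by construction, as does Pcgf2 toward W2. Pcgf6, a subunit of a variant repressive complex, stood at 4.88 and 44.4 TPM, 9.10-fold higher in W2 (6.30 to 13.6), and Rbbp4, a histone-binding subunit, at 15.1 and 40.8 TPM, 2.71-fold higher in W2 (2.30 to 3.20). Pcgf3 (32.1 and 18.8 TPM) and Phf1 (14.3 and 21.1 TPM) lay within 2-fold. Bmi1, a core subunit whose loss shifts Hox expression in mice, stood at 11.8 TPM in W1 (128 reads) and 0 in W2, at least 43.0-fold higher. The catalytic gene Ezh2 and its partner Suz12 were listed at 0 in both libraries. Ezh1, in the same list, stood at 2.72 TPM in W1 (30 reads) and 0 in W2, at least 10.1-fold higher.

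The Trithorax and MLL list was also divided. Of 9 compared genes among 15, 3 were higher in W1, where 34.7% of all genes compared were, and 4 in W2, where 32.9% were. The other 2 lay within 2-fold (median log2 ratio -0.18). Kmt2d and Kdm6a toward W1 and Men1 toward W2 had 0 reads in the other library and pass the rule by construction. Kdm6b, a demethylase that removes the Polycomb mark, stood at 103 and 116 TPM, and Dot1l, a histone methyltransferase linked to MLL fusions, at 11.6 and 11.3 TPM. Wdr5, a core subunit of MLL complexes, stood at 7.65 and 26.7 TPM, 3.48-fold higher in W2 (2.65 to 4.64). Psip1, which tethers MLL to chromatin, stood at 4.77 and 25.1 TPM, 5.25-fold higher in W2 (3.81 to 7.38). Kmt2a, the gene of MLL itself, was listed at 0 in both.

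Genes of the retinoic acid pathway that were compared were higher in W2 or within 2-fold. Of 16, 6 had reads in each library. Of 6 compared, 0 were higher in W1, where 34.7% of all genes compared were, and 3 in W2, where 32.9% were. The other 3 lay within 2-fold (median log2 ratio -1.22). Crabp2 and Aldh1a1, called toward W2, had 0 reads in W1 and pass the rule by construction. Any link to the Hox reads was not tested. Crabp2, which carries retinoic acid to its receptors, had 0 reads in W1 and 232 in W2 (81.7 TPM), at least 76.8-fold higher in W2. The receptor genes Rxra (4.10 and 3.88 TPM) and Rara (1.53 and 3.24 TPM) lay within 2-fold on the TPM + 1 scale.

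Other homeobox genes related to the Hox family lie outside the clusters, and few of them were read. Of 27, 4 had reads in W1 and 5 in W2, where 41.3% and 36.4% of protein-coding genes did. Of 6 compared, 4 were higher in W1 and 2 in W2, where 34.7% and 32.9% of all genes compared were. Hhex, Msx2 and Dlx4 had 0 reads in 1 library and pass the rule by construction. Meox1, a gene of somite development, stood at 224 TPM in W1 (1513 reads) and 68.4 TPM in W2 (465 reads), 3.28-fold higher in W1 (2.95 to 3.64), above the level of any Hox gene in either library. Meox2, which restrains the growth of vascular cells, stood at 44.2 TPM (316 reads) and 0.695 TPM (5 reads), 63.6-fold higher in W1 (27.0 to 197). Msx1 (25 and 1 reads) and Hhex (13 and 0 reads) were the others higher in W1. Msx2, which acts in the skin and mammary epithelium, had 0 and 204 reads (27.3 TPM in W2), at least 67.5-fold higher in W2, and Dlx4 had 0 and 39 reads, at least 12.9-fold higher. Evx1 and Evx2, which lie next to Hoxa and Hoxd, had 0 reads in both.

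**Figure D5:**
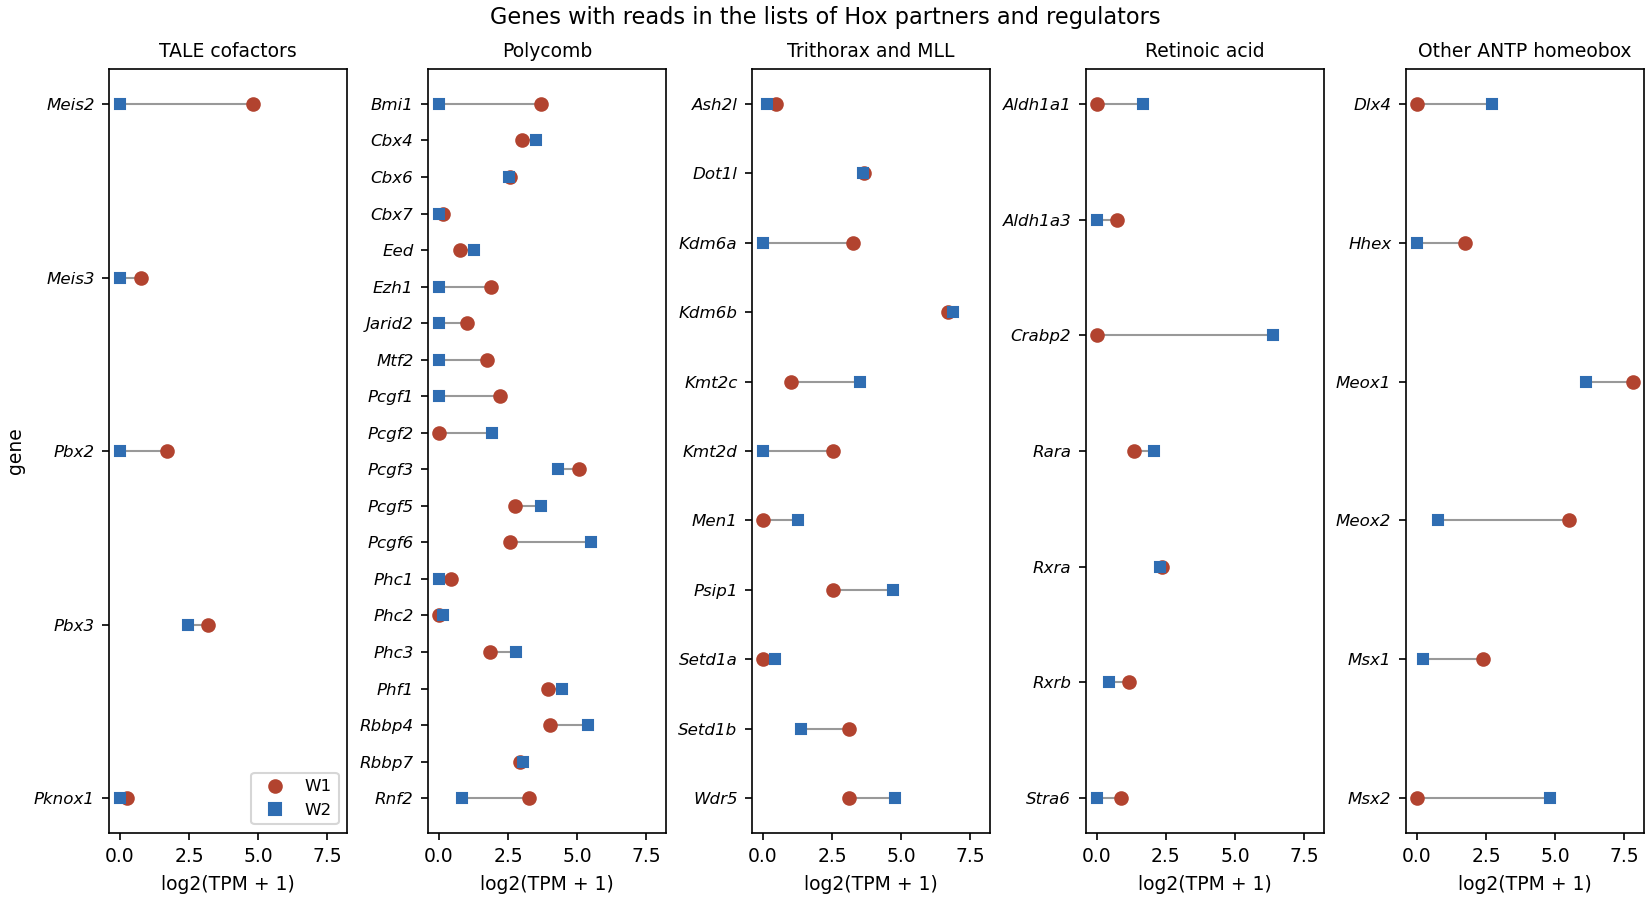
Rows are genes with reads in at least 1 library, in 5 lists of Hox partners, regulators and relatives, with log2(TPM + 1) on the horizontal axis for library W1 (red circles) and library W2 (blue squares). Meis2, Bmi1 and Meox2 lie to the right in W1, and Pcgf6, Crabp2 and Msx2 lie to the right in W2.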

How the data were processed

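RNA of 2 mouse libraries was analysed from tables of TPM and FPKM for 137767 transcripts. The authors used Bowtie 0.12.2, per the submitters' processing notes, which name 2 builds, mm8 and GRCm38. The sources used here do not give how reads were counted, with which annotation, or whether by strand. The deposited TPM values have the same total in both libraries. The FPKM values deposited by the authors differ from them by 1 factor per library (TPM per FPKM 1.01 and 1.25). A total of 137654 identifiers matched GENCODE M21, and gene values are sums over listed transcripts. FPKM times transcript length fell on whole reads within 0.1 read for all 21 Hox transcript values above 0, and for 98.4% and 98.0% of all values above 0. In W1, 27.7% of TPM fell on the single gene Gm23935, against 4.13% in W2, which lowers all other TPM of W1. Ratios used a pseudocount of 1 TPM. Fold intervals are exact Clopper-Pearson intervals on reads, level intervals exact Poisson intervals. Every Hox gene with a read was named. In the 5 other lists the 4 highest genes were named by rule, and genes near clusters with 20 reads or more. Bmi1, Ezh1, Ezh2, Suz12, Rnf2, Pcgf2, Kmt2a, Msx1, Hhex, Evx1 and Evx2 were named after their values were seen. So were Kmt2d, Kdm6a, Men1 and Aldh1a1. Some genes are counted in the totals and not reported here by name. The members, the lists and the 9 marker lists were chosen with earlier results of these data known. The steps were tested on simulated data. Tools were Python 3.11.15 and its packages matplotlib 3.10.9, pandas 2.3.3, scipy 1.17.1 and numpy 2.4.6.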

Additional observations from a re-analysis of the deposited data

How the results depend on the processing

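The count of Hox genes higher in W1 was 11 and stayed between 9 and 11 in all alternatives but 2. It was 6 with a pseudocount of 5, without Hoxa3, Hoxb4, Hoxb6, Hoxb8 and Hoxd4, and 7 under a 4-fold rule, without Hoxb4, Hoxb6, Hoxb8 and Hoxd4. Hoxb2 alone was higher in W2 in every alternative run. The median log2 ratio of 2.19 was 5.20 with a pseudocount of 0.1, 3.37 for genes with 20 reads or more, 3.35 on reads scaled to counted reads, and 2.73 with mitochondrially encoded genes, Gm23935 and ribosomal protein genes left out of the total. It was lower, at 0.78, with a pseudocount of 5, and at 1.64 without the filter on low values. Genes with reads numbered 13 to 16 in W1 and 3 in W2. Of 115 single-gene alternatives over 13 genes, 80 moved by less than the counting interval, 35 by more, and 0 changed direction. The alternative limited to transcripts with at least 100 own 50-mers on both strands was chosen after seeing the data and changed no count. No paired analysis was possible because each title has 1 library and neither has a group, and for the same reason no replicate could be left out. The smallest counts, Hoxa2, Hoxb9 and Hoxd3 with 3 reads or fewer, lie at the limit of depth.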
